A study of Rattus norvegicus with 2 samples.

Results

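The genes described here encode enzymes of gluconeogenesis, fructose metabolism and amino acid breakdown. They are 36 genes chosen by name, of which 35 had an array probe whose RefSeq accession leads to the current rat symbol and 34 were measured, among 10484 measured genes in all. Whole-kidney RNA was taken from PCK females, rats whose kidneys become cystic because of an inherited Pkhd1 defect and which model the recessive form of polycystic kidney disease. The treated group was given 10 mg/kg pioglitazone, a drug that activates PPAR-gamma, and the control group vehicle alone. The vehicle held 0.5% DMSO in both groups. Dosing was daily, by gavage, from 4 to 20 weeks of age, and both groups carried the PCK mutation. RNA was pooled within each group before labelling with Cy3 and hybridised to 1 array per group. The submitters' texts disagree on the pool, with 5 females in one place and 3 rats in another.

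The kidney, like the liver, makes glucose, and it does so in the proximal tubule from lactate, glutamine and other amino acids. Pck1 and Fbp1 catalyse steps that bypass glycolysis, and the carbon that feeds them comes largely from the breakdown of amino acids in mitochondria and cytosol. The same cells take up filtered amino acids, make arginine for the rest of the body, and release ammonium from glutamine in acidosis. The deposited values are processed spot intensity on a linear scale. A difference below is the log2 signal of the pioglitazone array minus that of the vehicle array after each array's 75th percentile was subtracted, while signals are given before this scaling. Each group is a single array, so no difference has a replicate check or a p-value, and the pools hold no spread between animals. The software's technical error of a difference was 0.20 for 33 of the 34 genes and 0.21 for Gpt. Among the 34 it hardly varied with signal, and it was not measured from repeated spots. For 203 probes printed in 10 spots, the SD of spot differences within a probe had a median of 0.07. Brightness depends on the probe, so signals are compared between arrays and never between genes.

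Most of the 34 genes had a slightly higher signal in the pioglitazone pool. The scaled difference was above 0 for 33 of them, where 56.2% of all measured genes and 67.8% of the brightest 25% of them were above 0. The median was 0.20, or 1.15-fold, against 0.03 over all measured genes and 0.05 in the brightest 25%, which held 31 of the 34. By at least 1.2-fold, 10 were higher and 0 lower. The share of all measured genes higher by 1.2-fold was 8.22%, and the share lower was 11.1%. Among the brightest 25% these shares were 4.54% and 3.36%. The count of 10 was 6 with quantile scaling and 20 without any scaling, and the matching shares of all genes were not counted. Without scaling 70.92% of all measured genes were above 0, with a median of 0.11. No gene of the 34 reached 1.5-fold in either direction, where 0.754% of all measured genes were higher and 1.76% lower, and 0.0382% and 0.343% of the brightest 25%. As read by each gene's brightest probe, no single difference exceeded 2 times its technical error. Glud1 (1.1995-fold) lay just under the 1.2-fold mark and Bckdhb (1.206-fold) just above it.

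The proximal promoters of 3 genes are shown for the gluconeogenic gatekeeper Pck1, for Oat, which had the highest difference, and for Gatm, which had the lowest. Each run is the 250 bases before the annotated start in RefSeq, build GRCr8, on the gene's own strand. Capitals mark TTACGTCA, a cyclic AMP response element, and AGGTCA, a nuclear receptor half-site, in Pck1, and CCAAT and GGGCGG boxes in Oat and Gatm.
Pck1, plus strand, chr3:182348322-182348571: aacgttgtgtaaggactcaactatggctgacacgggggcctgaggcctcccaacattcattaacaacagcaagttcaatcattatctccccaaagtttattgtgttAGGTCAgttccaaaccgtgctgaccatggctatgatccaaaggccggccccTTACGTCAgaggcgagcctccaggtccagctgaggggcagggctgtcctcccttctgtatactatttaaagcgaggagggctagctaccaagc
Oat, minus strand, chr1:196797755-196798004: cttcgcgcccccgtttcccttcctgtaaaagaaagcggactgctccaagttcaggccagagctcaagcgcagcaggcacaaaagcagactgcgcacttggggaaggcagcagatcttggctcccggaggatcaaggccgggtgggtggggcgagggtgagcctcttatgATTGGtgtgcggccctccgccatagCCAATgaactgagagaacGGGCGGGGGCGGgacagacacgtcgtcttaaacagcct
Gatm, minus strand, chr3:130129094-130129343: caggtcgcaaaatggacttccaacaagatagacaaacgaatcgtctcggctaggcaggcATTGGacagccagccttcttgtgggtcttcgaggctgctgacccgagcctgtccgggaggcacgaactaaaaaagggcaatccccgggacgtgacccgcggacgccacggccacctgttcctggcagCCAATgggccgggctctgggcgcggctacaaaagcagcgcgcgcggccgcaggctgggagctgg

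These motifs were searched on both strands in the same 250-base window of 33469 promoters, with 30 of the 36 genes matched. TTACGTCA was found in Pck1 alone among the 30 and in 0.75% of all promoters. It lay 93 to 86 bases before the Pck1 start, and the half-site lay 144 to 139 bases before it. AGGTCA was found in 5 of the 30 (Pck1, Bhmt, Haao, Hgd and Hpd) and in 14.1% of all promoters. Its exact direct repeat AGGTCANAGGTCA, the arrangement that PPAR receptors bind, was in 0 of the 30 and in 0.0508% of all. A string this rare is unlikely to occur in any 30 promoters, so the 0 cannot show whether these genes have PPAR sites. CCAAT was found in 17 of the 30 against 34% of all, and GGGCGG in 17 against 30.5%. The 30 are counted as genes, 1 of which has 2 promoter entries, while the shares are over entries. What sets these counts apart from the shares was not tested. A CCAAT box stood in the promoters of both Oat and Gatm, which lay at opposite ends of the differences, and GGGCGG in that of Oat but not of Gatm. A match is a string of letters and not a measured binding site.

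**Figure D1:**
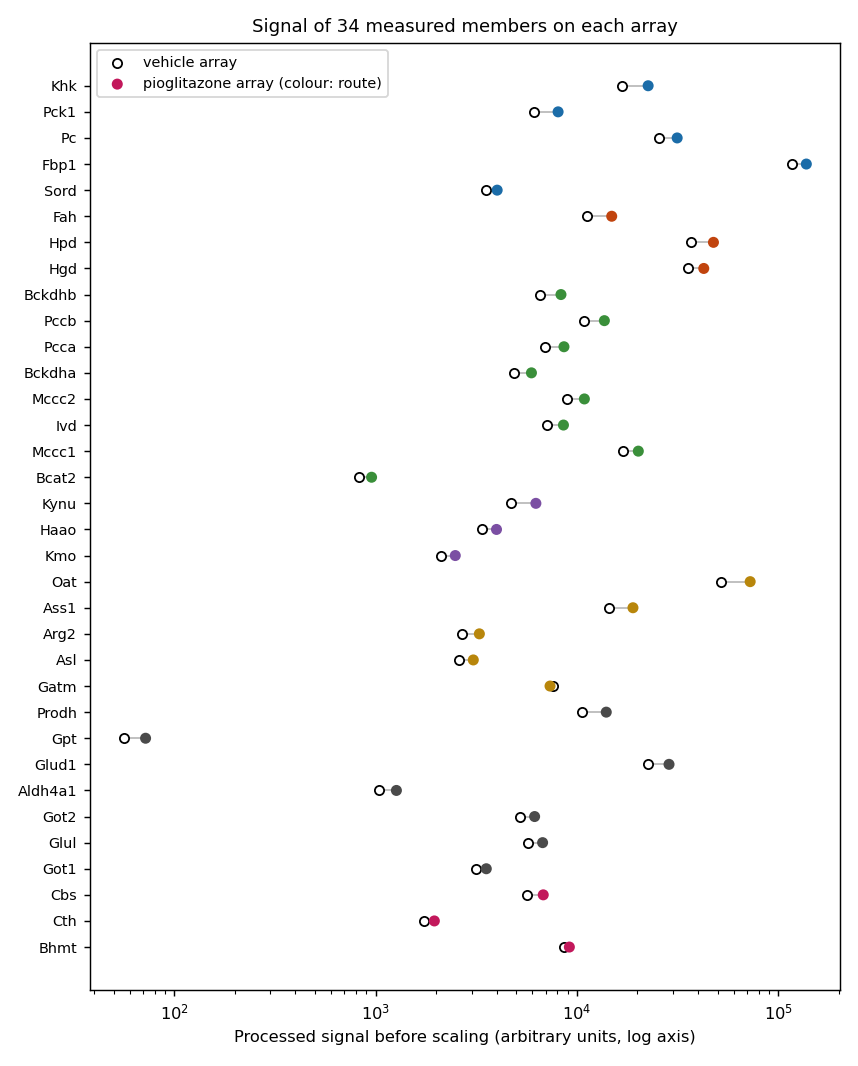
Processed signal before scaling of the 34 measured genes, on a log axis, on the vehicle array (open circles) and the pioglitazone array (filled circles, coloured by route). The filled circle lies to the right for every gene but Gatm, and distances between genes reflect the probes as well as the RNA.

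The 5 genes of gluconeogenesis and fructose use had a median difference of 0.22, between 0.11 and 0.35. Pck1, phosphoenolpyruvate carboxykinase, makes the step from oxaloacetate that commits carbon to glucose. Its brightest probe read 6140 on the vehicle array and 8070 on the pioglitazone array, a difference of 0.31 (1.24-fold). A second Pck1 probe was printed in 10 spots and shows the error between spots. Its vehicle signals ran from 1960 to 2040 with a median of 2000, and its pioglitazone signals from 2670 to 2970 with a median of 2805. The 2 sets of spots, before scaling, did not overlap. How many other probes printed in 10 spots separate likewise was not counted. Scaled spot differences lay between 0.32 and 0.50, with a mean of 0.41 and an SD of 0.05 over 10 spots. These spots carry the same 2 RNA pools and are technical repeats, so their SD shows error between spots and neither labelling or whole-array error nor the spread between rats.

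**Figure D2:**
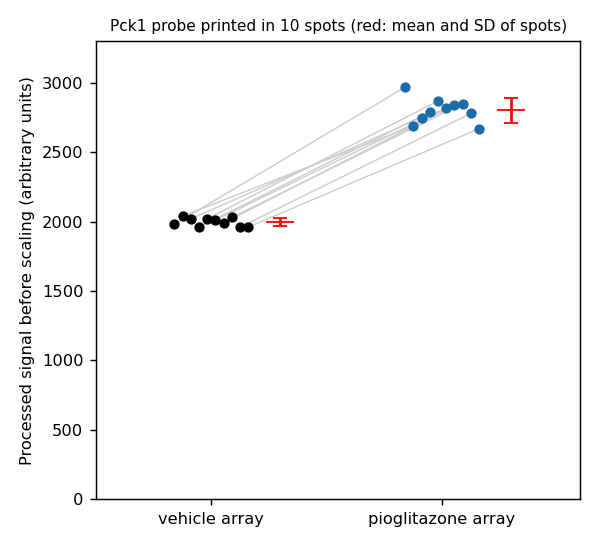
Processed signal before scaling of the Pck1 probe printed in 10 spots on each array, with lines joining spots at the same grid position and the mean and SD of the spots in red. Every pioglitazone spot (2670 or more) lies above every vehicle spot (2040 or less), and how many other probes printed in 10 spots separate likewise was not counted.

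Fbp1, fructose bisphosphatase, removes a phosphate late in the path to glucose and was read by a very bright probe. Its signals were 117000 with vehicle and 138000 with pioglitazone, a difference of 0.16, while a dimmer Fbp1 probe (8020 and 10500) gave 0.31. Pc, the mitochondrial pyruvate carboxylase that supplies oxaloacetate, read 25600 and 31500, a difference of 0.22. Khk, ketohexokinase, traps fructose in the cell as a phosphate ester. It had the second highest difference of the 34, with 16700 on the vehicle array and 22600 on the pioglitazone array (0.35, 1.28-fold). Sord, sorbitol dehydrogenase, which makes fructose from sorbitol, read 3520 and 4020 (0.11). All 5 genes were on the higher side, and the spread among them was within 2 times the technical error of 1 gene.

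Tyrosine breakdown had the highest route median in this setting, 0.28 over 3 measured genes. With normexp background correction it was 0.22 against 0.26 for gluconeogenesis, and without the middle grid rows 0.25 against 0.31. Hpd, 4-hydroxyphenylpyruvate dioxygenase, read 37000 with vehicle and 47700 with pioglitazone, a difference of 0.28. Hgd, homogentisate dioxygenase, the enzyme deficient in alkaptonuria, read 35600 and 42700 (0.18). Fah, fumarylacetoacetate hydrolase, closes the pathway and yields fumarate and acetoacetate; its signals of 11200 and 14900 gave 0.33 (1.26-fold). The pioglitazone signal was the higher one for all 3. Tat, tyrosine aminotransferase, which opens the pathway in liver, was not well above background on either array (1.63 and 1.56) and has no difference here.

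The breakdown of branched-chain amino acids and propionate gave the most even route. All 8 genes lay between 0.13 and 0.27 with a median of 0.21, and 1 of them, Bckdhb, passed 1.2-fold. Bcat2, the mitochondrial aminotransferase that removes the amino group of leucine, isoleucine and valine, read 824 and 956 (0.13). The 2 subunits of the branched-chain ketoacid decarboxylase, the committed step, read 4860 and 5950 for Bckdha (0.21) and 6530 and 8340 for Bckdhb (0.27). Ivd, isovaleryl-CoA dehydrogenase of the leucine branch, read 7110 and 8580 (0.19). The biotin enzymes were also measured by both of their subunits. For methylcrotonyl-CoA carboxylase, Mccc1 (17000 and 20200) was at 0.17 and Mccc2 (8930 and 10900) at 0.21. For propionyl-CoA carboxylase, Pcca (6910 and 8630) was at 0.24 and Pccb (10900 and 13700) at 0.25. Within each of the 3 subunit pairs the differences were apart by 0.06, 0.04 and 0.01, less than the technical error, and a dimmer Pcca probe (237 and 271) gave 0.11.

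**Figure D3:**
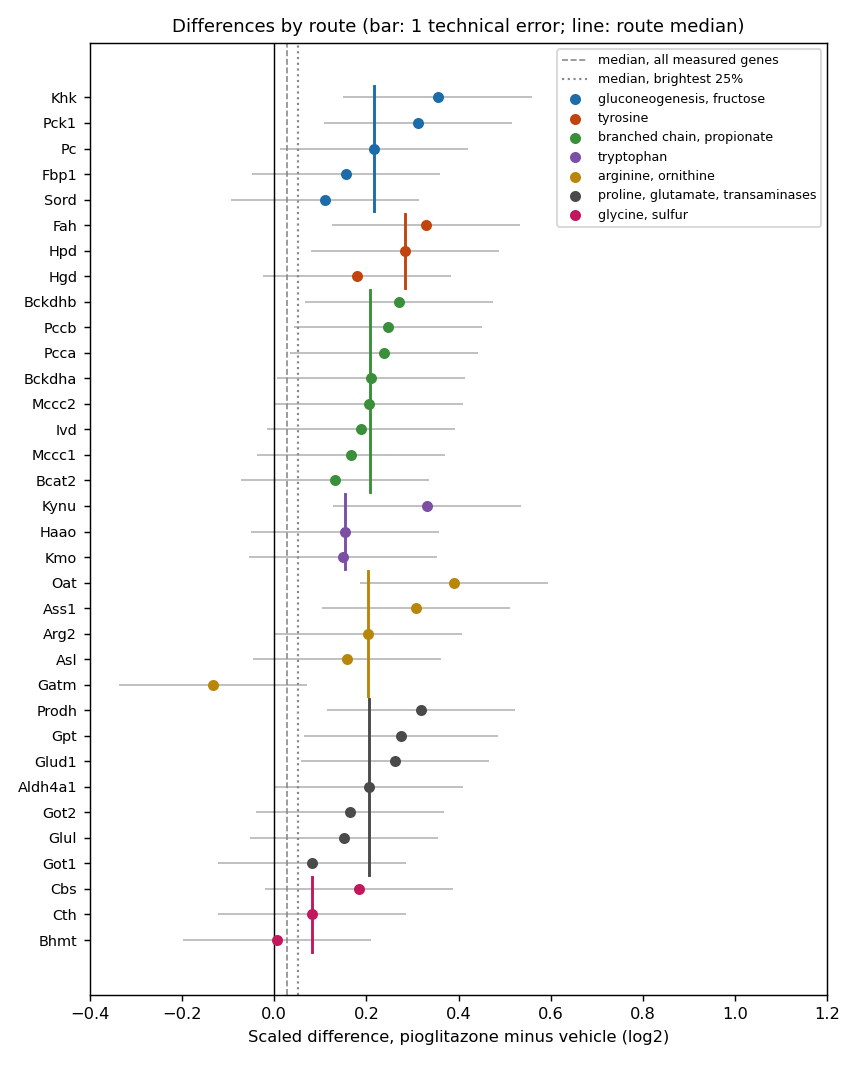
Scaled log2 difference, pioglitazone minus vehicle, for each measured gene, with bars of 1 technical error, coloured vertical lines at route medians, and grey lines at the medians of all measured genes (0.03) and of the brightest 25% of genes (0.05). Gatm alone lies below 0 under this scaling, and Bhmt is at 0.01 and turns sign under others.

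Tryptophan breakdown along the kynurenine route had a median of 0.15 over 3 genes. Kynu, kynureninase, which splits alanine from kynurenines, stood above the others of its route with 4700 and 6260 (0.33, 1.26-fold). Kmo, the kynurenine hydroxylase of the outer mitochondrial membrane, read 2120 and 2490 (0.15). Haao, which opens the ring of 3-hydroxyanthranilate on the way to quinolinate, read 3390 and 3990 (0.15). All 3 were on the higher side.

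The arginine and ornithine genes were the most divided, from -0.13 to 0.39 around a median of 0.20. Oat, the mitochondrial ornithine aminotransferase that turns ornithine into a precursor of proline and glutamate, had the highest difference of the 34. Its brightest probe read 52300 with vehicle and 72600 with pioglitazone (0.39, 1.31-fold), and a dimmer probe read 3680 and 5780 (0.57, 1.48-fold), past 2 times its technical error. Ass1 and Asl act in sequence to make arginine from citrulline in the proximal tubule. Ass1 read 14500 and 19000 (0.31, 1.24-fold), and Asl read 2590 and 3060 (0.16). Arg2, the mitochondrial arginase of kidney, which releases ornithine and urea, read 2690 and 3280 (0.20). Gatm, which transfers the amidino group of arginine to glycine in the first step of creatine synthesis, went the other way. Its probe read 7620 with vehicle and 7360 with pioglitazone, a difference of -0.13. Oat and Gatm, which both act on arginine or its product in mitochondria, were thus 0.52 apart. Gatm remained below 0 in all 11 settings that gave it a value, between -0.18 and -0.05, and its difference is smaller than its technical error.

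Proline and glutamate enzymes and the transaminases had a median of 0.21 over 7 genes, all above 0. Prodh, proline dehydrogenase, which begins proline breakdown, was seen by 3 probes with differences of 0.32, 0.41 and 0.49, of which the 2 larger, from the dimmer probes, passed 2 times their technical error. The brightest read 10600 and 14000. Aldh4a1, which finishes the conversion of proline to glutamate, read 1040 and 1270 (0.21). Glud1, glutamate dehydrogenase, releases ammonium and feeds the citric acid cycle. Its 3 probes gave 0.25, 0.26 and 0.34, and the brightest read 22600 and 28700. Glul, glutamine synthetase, binds ammonium to glutamate. Its brighter probe (5750 and 6760) was at 0.15 and its other probe (3170 and 3180) at -0.08, so its direction depends on the probe. The aspartate aminotransferases read 3170 and 3550 for the cytosolic Got1 (0.08) and 5200 and 6170 for the mitochondrial Got2 (0.16). Gpt, alanine aminotransferase, read 56.3 and 72.1 (0.27), and its difference was 0.10 with normexp background correction.

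Glycine and sulfur amino acid genes had the lowest route median, 0.08 over 3 genes, and none passed 1.2-fold. Cbs, cystathionine beta-synthase, which condenses homocysteine with serine, read 5660 and 6810 (0.18). Cth, which splits cystathionine to cysteine, read 1750 and 1960 (0.08). Bhmt, which remethylates homocysteine from betaine, read 8630 and 9180 (0.01), and its sign turned between scalings, from -0.05 to 0.09. No probe was matched to Gldc, the glycine decarboxylase, which is not analysed here. The gap of 0.20 between the highest and the lowest route median equals the technical error of 1 gene, so the order of the routes is a description of these 2 arrays only.

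**Figure D4:**
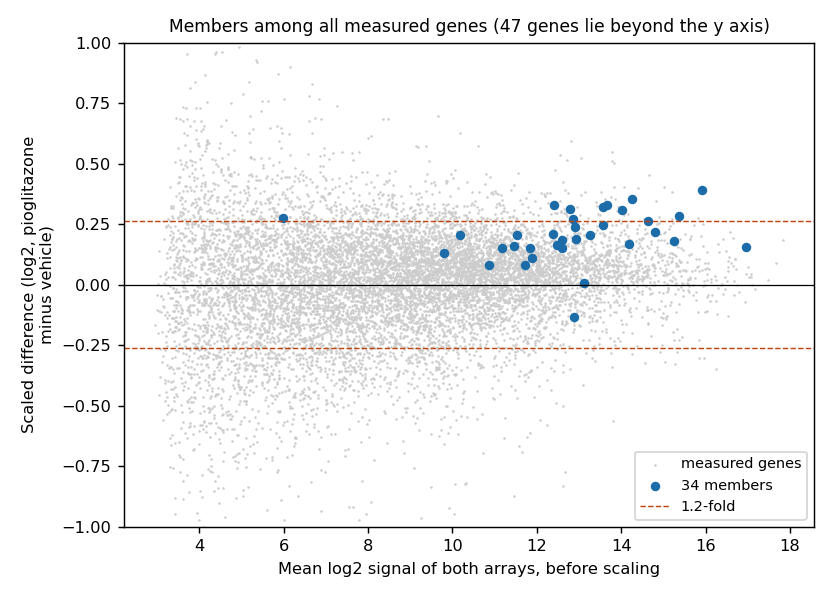
Scaled log2 difference against mean log2 signal before scaling for all measured genes (grey) and the 34 enzyme genes (blue), with dashed lines at 1.2-fold; 47 measured genes lie beyond the y axis. The spread of grey points narrows toward high signal, where 31 of the 34 lie, and 10 blue points pass the upper line.

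Other genes of the same pathways spread more widely, from -0.85 to 0.59, and 41 of 84 lay in the brightest 25%, where differences are narrower. Of 100 listed, 84 were measured, 64 of these were above 0, 18 were higher and 5 lower by 1.2-fold, and their median was 0.13. The shares over all measured genes were 56.2%, 8.22% and 11.1%. At 1.5-fold and 2 times the technical error, 1 was higher and 3 were lower. The shares over all measured genes were 0.754% and 1.76%. Pycr1, which makes proline, was at 0.59 from dim signals of 14.5 and 23.1. Hal, histidine ammonia lyase (26.4 and 15.5), was at -0.85 and Bcat1, the cytosolic counterpart of Bcat2 (34.8 and 22.5), at -0.71, both also dim. Akr1b1, aldose reductase, which supplies sorbitol, was brighter (556 and 376) and at -0.65.

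Among further gluconeogenic and fructose genes, 11 of 14 were above 0 with a median of 0.11. G6pc1, the glucose-6-phosphatase that ends gluconeogenesis, read 33500 and 38400 (0.11), less than Pck1 but within the technical error of it. Gpd1, which links glycerol to the triose pool, was the highest at 0.45. Other genes of glycine, serine and sulfur metabolism had 20 of 21 above 0 with a median of 0.24, from Cdo1 (-0.08) to Psat1 (0.44), while the 3 measured genes of that route above had a median of 0.08. Further branched-chain genes were above 0 in 7 of 13 with a median of 0.07, and the lowest was Bcat1. The 7 of 13 stand near the 56.2% of all measured genes above 0.

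In arginine and ornithine metabolism 8 of 13 further genes were above 0 with a median of 0.12. Their lowest was Agxt2 (-0.15). Over all measured genes 56.2% were above 0, and the 8 of 13 stand near that share. Glutamine and proline genes had 8 of 9 above 0 with a median of 0.14, from Gpt2 (-0.51, dim) to Aspa (0.31). All 4 further tryptophan genes were above 0, from Aadat (0.08) to Kyat1 (0.36). For tyrosine and phenylalanine, 4 further genes had a median of 0.04, with Qdpr (0.17) as the highest. Of 6 lysine and histidine genes 4 were above 0, the highest being Gcdh (0.46), a glutaryl-CoA dehydrogenase.

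Regulators of these pathways were mixed, with 9 of 16 measured above 0, 2 higher and 2 lower by 1.2-fold, and a median of 0.12. The shares over all measured genes were 56.2%, 8.22% and 11.1%, so the 9 of 16 stand near the share above 0 of all genes. The highest was Pth1r, the parathyroid hormone receptor of the proximal tubule (5800 and 7980, 0.38). The lowest was Cebpb, a transcription factor of the acute phase and of gluconeogenic genes (-0.53). Pparg, the receptor that pioglitazone binds, was dim, with mean signals of 37.3 and 32.2 over its spots and a difference of -0.30.

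Markers of the proximal tubule, the segment that holds most of these enzymes, were also mostly above 0. Over all measured genes 56.2% were above 0, 8.22% higher and 11.1% lower by 1.2-fold. Of 20 proximal tubule markers 18 were measured and 17 were above 0, with a median of 0.17 and 5 higher by 1.2-fold. Their summed signal, in units of each array's 75th percentile, was 731 with vehicle and 798 with pioglitazone, or 1.09 times as high. None of the 18 matched markers was below background, and their differences ran from Slc4a4 (-0.07) to Slc7a7 (0.33). The 5 higher by 1.2-fold were Slc7a7, Slc5a1 (0.33), Slc17a3 (0.30), Ggt1 (0.27) and Slc17a1 (0.26), while Lrp2, Slc34a1 and Slc5a2 were at 0.03, 0.03 and 0.08. Fibroblast markers were lower, with 0 of 6 above 0 and a median of -0.37, and macrophage markers had 0 of 5 above 0 and a median of -0.15. Podocyte markers had 5 of 5 above 0 and a median of 0.30, and those of the thick ascending limb 4 of 4 and 0.20. Medians were -0.02 for distal tubule and collecting duct (9 genes), -0.04 for endothelium (5), -0.64 for adipocytes (4) and -0.22 for urothelium (3). Distal and collecting duct markers went both ways, from -0.34 to 0.42, with 4 of 9 above 0. The 4 adipocyte markers were split, with Retn at -2.27, Cfd at -1.18 and the others at -0.10 and -0.07. In a pool of whole kidney, more proximal tubule RNA in the sample and more enzyme RNA per cell cannot be told apart, and the part of these marker shifts in the enzyme differences was not tested. Hepatocyte markers, included because liver shares these pathways, had 2 of 6 above 0 and a median of -0.27. They ranged from Alb (24.8 and 19.2, -0.45) to Ttr (29.6 and 45.2, 0.53, past 2 times its technical error). Fgb read 3690 and 3020 (-0.37), and Cyp7a1 was not well above background on either array.

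**Figure D5:**
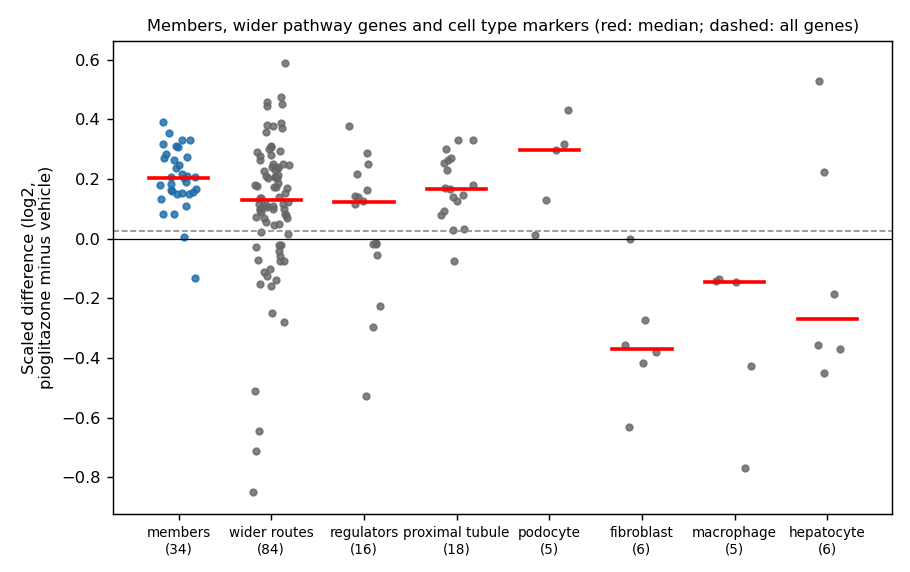
Scaled log2 difference, pioglitazone minus vehicle, for the 34 enzyme genes, the 84 measured wider pathway genes, regulators and markers of 5 cell types, each point 1 gene, with list medians in red and the median of all measured genes as a dashed line. The enzyme genes (median 0.20) and proximal tubule markers (0.17) lie mostly above 0, and podocyte markers (0.30) all do. Fibroblast (-0.37), macrophage (-0.15) and hepatocyte (-0.27) markers do not lie mostly above 0.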

How the data were processed

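Per the submitters' processing notes and the file headers, the deposited spot intensity values come from Agilent Feature Extraction 10.7.3.1, background-subtracted and detrended within each array and not scaled between arrays. The deposited value table equals them at all 45018 features. No spot was saturated, and 71.8% of spots with vehicle and 73.1% with pioglitazone were well above background. The number of arrays, 1 per group, limits the precision. Control spots and 149 spots with an outlier flag were left out, log2 signals were centred on each array's 75th percentile (a shift of 0.08 between arrays), and spots of a probe were averaged. RefSeq accessions of the GRCr8 gene table named 16959 of 40998 probes. The files use build rn4, so no gene coordinates are given other than those of the RefSeq promoters. A gene took its brightest probe and was measured when that was well above background on both arrays. The technical error combines the software's errors of both arrays. The procedure was tested on simulated data with spot error only and with known shifts larger than the differences of the enzyme genes. That test cannot show error between arrays or animals. The 36 genes, the lists and the fold thresholds were chosen with earlier results of these data known. All 36 genes are named; of the other lists, those past 1.5-fold and 2 times the error, the highest and lowest of each list, G6pc1 and Pparg, with markers of proximal tubule and liver chosen after their values were seen. A few genes picked this way are not reported here. Python 3.11.15, R 4.3.3 and limma 3.58.1 (quantile, cyclic loess and normexp alternatives) were used.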

Additional observations from a re-analysis of the deposited data

How the results depend on the processing

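The 36 genes were reanalysed under 11 alternatives. The median stayed above 0 under all 11 and the genes above 0 numbered 32 or 33 of 34 under each of the 5 other scalings; 31 genes were above 0 in every setting that gave a value, the exceptions being Gatm, Bhmt and Glul. Relative to all measured genes the median was higher by 0.15 to 0.20 throughout. Without scaling the median was 0.29, 20 genes were higher by 1.2-fold, and the route medians were 0.30 (gluconeogenesis), 0.37 (tyrosine), 0.29 (branched chain), 0.24 (tryptophan), 0.29 (arginine), 0.29 (proline and glutamate) and 0.16 (glycine and sulfur). The cause is the shift between arrays that scaling removes. Of all measured genes 70.92% were above 0 without scaling and 66.85% with median scaling. Shares of all genes at each fold were counted under the main scaling only. Counts at a fold under other settings therefore have no such share beside them. With quantile scaling 6 of the 34 genes were higher by 1.2-fold. Without the sixth and the seventh of 10 bands of grid rows 26 genes remained, the gluconeogenic median was 0.31 over 3 genes and that of tryptophan 0.24 over 2. There, and with normexp, gluconeogenesis and not tyrosine had the highest route median. Wider pathway genes higher by 1.2-fold numbered 28 with median scaling and 33 unscaled, and 2 were lower among genes above the median signal. At 1.5-fold, 0 were higher with the 75th percentile of detected probes, normexp, genes above the median signal and a mean over probes, and 1 was lower with normexp and above the median signal. Regulators higher by 1.2-fold numbered 4 with median scaling and unscaled and 1 with a mean over probes. Regulators lower numbered 1 with median, no and quantile scaling and normexp, and 0 above the median signal. Except for the unscaled values, the cause was not tested. Normexp was run on median signals. No paired analysis was possible because only 1 array exists per group, and no replicate could be left out.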

Other observations

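Enzymes were also grouped by the compartment where they are known to act, a grouping made after the values were seen. The 17 measured mitochondrial enzymes had a median of 0.21, with 16 above 0 and 3 higher by 1.2-fold. The 17 measured cytosolic ones had a median of 0.18, with 17 above 0 and 7 higher by 1.2-fold. Over all measured genes 56.2% were above 0 and 8.22% higher by 1.2-fold. These medians were closer than the technical error of 1 gene.

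Probes of one gene did not give one value. Of 8 genes with several measured probes, the dimmest probe gave the larger difference in 6: Oat (0.57 against 0.39), Prodh (0.49 against 0.32), Fbp1 (0.31 against 0.16), Pck1 (0.41 against 0.31), Bhmt (0.10 against 0.01) and Glud1 (0.34 against 0.26). For Pcca (0.11 against 0.24) and Glul (-0.08 against 0.15) it gave the smaller one. The difference reported for a gene is that of its brightest probe.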
